A study of Mus musculus with 9 samples.

Results

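In a bulk RNA-seq series of sorted mouse germ cells, 11 of 24505 genes were highest in preleptotene (PL) spermatocytes that lacked retinoic acid (RA). They were Nrtn, Col6a3, Hip1r, Chd9, Nobox, Polr2a, Elavl3, Radil, Spns2, Naf1 and Kcnh4. A gene was chosen when its lowest value over the 3 RA-deficient PL libraries was at least 5 CPM (counts of the gene per 1000000 counts of the library) and at least 2 times its highest value over the other 6 libraries. The genes were thus selected on their CPM in all 9 libraries, and the RA-deficient levels and both comparisons that use them are given as a description, without a test. The same rule chose 903 genes for RA-sufficient PL and 759 for In/B spermatogonia.

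RNA came from EGFP+ germ cells of Uchl1-eGfp mice, a line of C57BL/6 origin outcrossed to CD-1, where EGFP is expressed from the Uchl1 promoter, strongly in spermatogonia and weakly in PL spermatocytes. In all 3 groups spermatogenesis had been synchronized with bis-(dichloroacetyl)-diamine, an inhibitor of RA synthesis, given orally at 100 µg per g of body weight from P1 until P11 in the sample records, and on P11 RA in DMSO was injected once (10 µl of a solution with 10 µg per µl). In/B (intermediate and type B) spermatogonia were sorted at P17 after the inhibitor had been stopped. RA-sufficient PL spermatocytes were sorted at P19 after the same regimen, and RA-deficient PL spermatocytes at P19 from mice kept on the inhibitor after the injection. Each group had 3 libraries, and the testes of several pups of a litter were pooled for a preparation. The RA-deficient cells had thus seen exogenous RA once, and no group was free of the inhibitor. The methods give 2 or 3 independent cell preparations without saying which library came from which, so the p-values below measure the spread between these libraries, part of which may be technical.

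RA is made from vitamin A and acts through nuclear receptors that sit on DNA and switch genes when RA binds them. In the testis it drives spermatogonia to differentiate and raises Stra8, which encodes a transcription factor of meiotic entry. PL spermatocytes are the cells that enter meiosis after differentiation, and they replicate their DNA a last time before meiotic prophase. The 11 genes do not form a pathway: they encode nuclear proteins (Polr2a, Chd9, Nobox, Naf1), an RNA-binding protein (Elavl3), a secreted ligand and a matrix chain (Nrtn, Col6a3), membrane transport proteins (Spns2, Kcnh4) and proteins of endocytosis and adhesion (Hip1r, Radil).

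Between 12612959 and 27042274 counts were assigned to genes in a library. The RA-deficient PL libraries were among the deeper ones (25048240 to 27042274 counts), yet had a count for fewer genes, 14769 to 15327 against 16758 to 18434 in the other 6. The germ cell gene Ddx4 stood at 411 to 572 CPM in all 9 libraries. Uchl1, whose promoter drives the EGFP, was at 1607, 1760 and 905 CPM in RA-deficient PL. It was at 458 to 640 CPM in RA-sufficient PL and 2419 to 3877 CPM in In/B. All 3 RA-deficient libraries thus lay between the other groups, and what part this had in the 11 genes was not tested. The 27 Sertoli markers that were measured summed to 1021 to 1297 CPM in In/B, 5764 to 8115 in RA-sufficient PL and 1109 to 1156 in RA-deficient PL, and 26 of them were called lower in RA-deficient than in RA-sufficient PL, against 11% of all genes tested. RA-deficient PL replicate 3 stood apart from replicates 1 and 2. Kit, the receptor of differentiating spermatogonia, was at 521 and 486 CPM in replicates 1 and 2 and at 18.6 CPM in replicate 3, beside 325 to 428 CPM in In/B and 20.9 to 44.2 CPM in RA-sufficient PL. Stra8 was at 351 and 341 CPM in replicates 1 and 2 and at 74.5 CPM in replicate 3. Stra8 also separated replicate 1 from the others in In/B (57.7 against 163 and 154 CPM) and in RA-sufficient PL (478 against 132 and 125 CPM). Values without RA-deficient replicate 3 are given with each gene, and those without another library where they moved a difference by over 1.5 times or changed a call.

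The plot of the values that chose the genes shows how few lay above a ratio of 2. Of the 9139 genes with at least 5 CPM in every RA-deficient PL library, 671 were higher there than in any other library, 59 by at least 1.5 times and 0 by at least 4 times. Leaving out RA-deficient replicate 3, which loosens the rule, gave 63 chosen genes in place of 11, and CPM after TMM or RLE scaling gave 24 or 30, beside 796 or 779 for RA-sufficient PL and 655 or 488 for In/B. With all libraries and unscaled CPM, 375 genes reached a ratio of 4 in RA-sufficient PL and 77 in In/B. The largest ratio was 3.62 in RA-deficient PL (Nrtn), 48.2 in RA-sufficient PL and 19.5 in In/B. The members nearest the limit were Radil (2.05), Spns2 (2.02), Naf1 (2.01) and Kcnh4 (2.00). Just outside it lay Tchh (1.92), Ly6k (1.89), Wipf2 (1.87) and Nup214 (1.85). A further 16 genes passed the ratio with a lowest RA-deficient level above 0 but under 5 CPM.

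**Figure D1:**
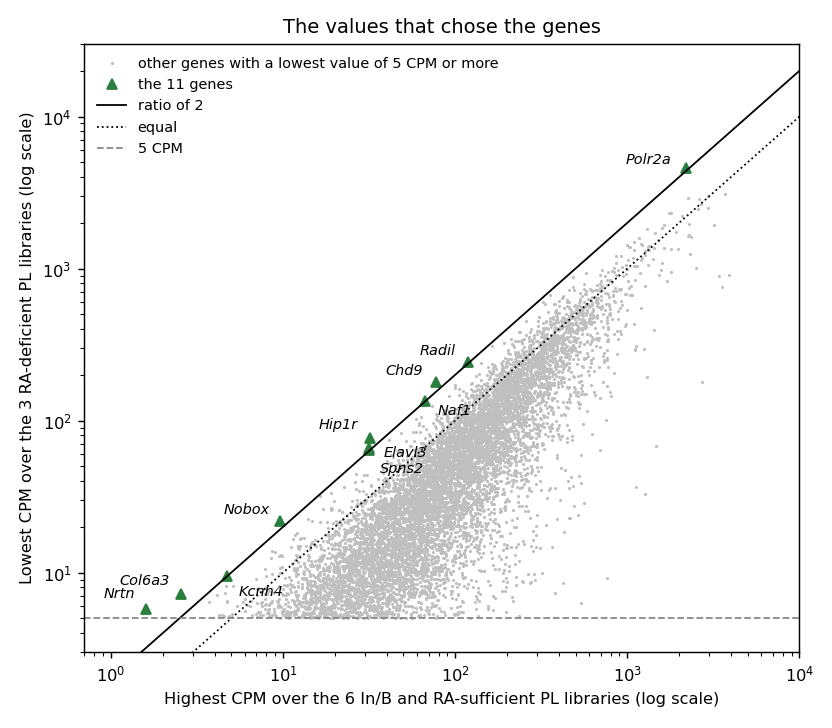
Each point is 1 of the 9139 genes with at least 5 CPM in all 3 RA-deficient PL libraries, with the highest CPM of the other 6 libraries across and the lowest CPM of the 3 RA-deficient PL libraries upward, both on log scales. The 11 chosen genes (triangles) lie on or above the solid line of a ratio of 2, spread from Nrtn at 5.80 CPM to Polr2a at 4579 CPM, while most genes lie under the dotted line of equal levels.

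Promoters from RefSeq (GRCm38.p6, 250 bases before to 50 after the start) were found for 10 of the 11 genes, with 2 starts each for Chd9 and Radil and none for Naf1, which gave 12. They are shown for Polr2a, the most abundant member, Nrtn, the member with the largest ratio, and Nobox and Spns2, which hold the core letters AGGTCA that RA receptors and related nuclear receptors bind. Each is given 5′ to 3′ on the strand of the gene from 250 bases before to 20 after the start, with motif matches in capitals. In Polr2a the capitals mark 3 GC boxes, of which 2 overlap an E2F core, then a TATA box and, over the start, the letters CNCCTCAG associated with STRA8.
Polr2a, chr11:69758614-69758883, minus strand: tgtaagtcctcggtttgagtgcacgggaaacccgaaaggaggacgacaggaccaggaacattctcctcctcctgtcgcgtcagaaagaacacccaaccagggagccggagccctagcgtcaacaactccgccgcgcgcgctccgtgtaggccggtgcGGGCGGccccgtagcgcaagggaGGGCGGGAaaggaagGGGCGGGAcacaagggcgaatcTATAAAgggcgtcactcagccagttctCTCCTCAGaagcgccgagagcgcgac
Nrtn, chr17:56757529-56757798, minus strand: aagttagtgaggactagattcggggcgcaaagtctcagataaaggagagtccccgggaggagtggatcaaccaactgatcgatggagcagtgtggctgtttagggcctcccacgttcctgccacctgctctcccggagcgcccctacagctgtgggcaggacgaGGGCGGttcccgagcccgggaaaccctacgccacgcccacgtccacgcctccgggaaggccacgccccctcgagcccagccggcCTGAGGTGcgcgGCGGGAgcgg
Nobox, chr6:43309535-43309804, minus strand: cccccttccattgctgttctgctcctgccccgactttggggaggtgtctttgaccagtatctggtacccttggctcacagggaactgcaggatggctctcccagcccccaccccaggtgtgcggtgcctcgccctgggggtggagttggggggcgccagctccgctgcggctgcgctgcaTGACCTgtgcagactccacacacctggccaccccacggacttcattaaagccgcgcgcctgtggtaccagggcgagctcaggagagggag
Spns2, chr11:72475008-72475277, minus strand: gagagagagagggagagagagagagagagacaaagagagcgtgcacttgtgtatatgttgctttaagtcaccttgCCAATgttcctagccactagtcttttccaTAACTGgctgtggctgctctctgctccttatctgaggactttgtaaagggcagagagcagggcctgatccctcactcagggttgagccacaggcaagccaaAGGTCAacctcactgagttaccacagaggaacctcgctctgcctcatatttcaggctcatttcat
In Nrtn they mark a GC box, the STRA8-associated letters on the opposite strand across the start, and an E2F core. In Nobox they mark an AGGTCA read on the opposite strand, and in Spns2, whose first transcribed bases in this entry were not found in a GENCODE transcript, a CCAAT box, a MYB core on the opposite strand and an AGGTCA.

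Over the 12 promoters, 12 motifs were searched on both strands and set beside all 21202 promoters of genes in the table. The STRA8-associated letters CNCCTCAG were in 3 (Nrtn, Polr2a and the first start of Radil), against 8.57% of all promoters. AGGTCA was in 2 (14.6% of all). The GC box GGGCGG was in 7 (46.6% of all), CCAAT in 4 (38.1%), the E2F core TCCCGC in 4 (25.8%), TATAAA in 2 (12.2%), the MYB core CNGTTA in 2 (21.5%), the E-box CACGTG in 1 (8.03%) and the CRE core TGACGT in 1 (8.72%). The AP-1 site TGANTCA (7.26% of all), the RFX core GTTGCC (12.4%) and the ATF4-CEBP core TGATGNAA (3.47%) were in 0. These are matches of letters in a short window, from as few as 12 promoters, and no binding was measured here. No motif was in all 12, and 8 of the 12 had at least 10 CpG, against 57.0% of all promoters.

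Among the nuclear proteins, Polr2a encodes RPB1, the largest and catalytic subunit of RNA polymerase II (chr11:69547499-69572139 in mm9, minus strand, promoter above). Its level was 1873, 2026 and 2194 CPM in the In/B libraries, 1675, 1872 and 1592 CPM in RA-sufficient PL and 4805, 4579 and 4779 CPM in RA-deficient PL. All 3 RA-deficient libraries were high and nearly equal, with a coefficient of variation of 2.62%, the smallest of the 11 genes there. Polr2a was the most abundant of all genes in each RA-deficient PL library, where it took 0.458% to 0.481% of the counts, while it ranked 4 to 9 in In/B and 9 to 20 in RA-sufficient PL. It also held 82.9% to 83.9% of the counts of the 11 genes there. The fitted log2 difference of RA-deficient PL was 1.64 (SE 0.11) from RA-sufficient PL and 1.53 (SE 0.09) from In/B, and 1.64 and 1.52 without replicate 3.

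Most of the other 11 subunits of RNA polymerase II were near the same level in both PL groups. In RA-deficient against RA-sufficient PL, 1 of the 11 was called higher by the edgeR fit, Polr2e (log2 difference 1.12, SE 0.20), and 0 lower, with a median log2 difference of 0.21. Without replicate 3 it was again 1 higher and 0 lower. Polr2e was at 104, 114 and 76.4 CPM in RA-deficient PL, 41.7 to 60.1 CPM in RA-sufficient PL and 141 to 232 CPM in In/B. Polr2b, which encodes the second largest subunit, was at 763, 767 and 748 CPM in In/B, 297, 357 and 396 CPM in RA-sufficient PL and 366, 388 and 336 CPM in RA-deficient PL. In RA-sufficient PL against In/B 7 of the 11 were called lower and 0 higher, with a median log2 difference of -1.35, where Polr2a differed by -0.23. Of all genes tested in that comparison, 19.3% were called lower. In RA-deficient PL against In/B 5 of the 11 were called lower and 1 higher, with a median log2 difference of -0.75. Of all genes tested there, 11.8% were called lower and 11.4% higher. Without replicate 3 the subunits called against In/B were 3 lower and 0 higher. Over all genes, 4.47% were called higher and 11% lower in RA-deficient than in RA-sufficient PL (8.01% higher without replicate 3), and the counts of relatives and lists below stand beside these shares. A gene was called at an absolute log2 difference above 1 and an adjusted p below 0.05. These subunits, and the other families compared below, were picked after the 11 genes were known.

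Chd9 encodes an ATP-dependent chromatin remodeller of the CHD family (chr8:93352734-93578407, plus strand). It had a separate level in each group, with 7.41, 11.3 and 10.1 CPM in In/B, 71.9, 70.3 and 77.3 in RA-sufficient PL and 179, 183 and 249 in RA-deficient PL. None of the 3 groups overlapped, and RA-deficient replicate 3 was the highest library. The rule fixed the gap to RA-deficient PL, and between In/B and RA-sufficient PL 45.4% of all genes tested were called. A call is another measure than a lack of overlap, and the share of all genes without overlap is not given here. Nothing is therefore read from a lack of overlap between In/B and RA-sufficient PL, for Chd9 or for the genes below. RA-deficient PL differed from RA-sufficient PL by 1.66 (SE 0.16) on the log2 scale, or 1.49 without replicate 3, and from In/B by 4.72 (SE 0.24). Of the other 8 CHD genes, Chd5 (log2 difference 1.82, SE 0.22) and Chd7 (1.01, SE 0.24) were also called higher in RA-deficient than in RA-sufficient PL, and 0 were lower. Chd5 was at 147, 123 and 87.1 CPM in RA-deficient PL against 34.3 to 44.2 CPM in RA-sufficient PL, and at 78.2 to 102 CPM in In/B. It differed from In/B by 0.69 (SE 0.21), or 0.87 (SE 0.15) without replicate 3, both under the limit for a call. Chd7 was at 62.8, 52.1 and 53.8 CPM in RA-deficient PL, 21.4 to 39.5 CPM in RA-sufficient PL and 35.6 to 56.4 CPM in In/B. Its RA-deficient and In/B ranges thus overlapped, and without replicate 3 it differed from In/B by 0.72 (SE 0.21), under that limit.

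Nobox encodes a homeodomain factor known from oocytes, where it is needed for early follicles (chr6:43253673-43259561, minus strand, promoter above). Its level was 9.66, 2.36 and 2.03 CPM in In/B, 5.15, 5.69 and 5.73 CPM in RA-sufficient PL and 31.8, 38.5 and 21.9 CPM in RA-deficient PL. In/B replicate 1 alone set the highest value outside the RA-deficient group, and RA-deficient replicate 3 was the lowest of its group. The fitted log2 difference was 2.65 (SE 0.29) from RA-sufficient PL and 3.05 (SE 0.61) from In/B, and 2.85 and 3.24 without RA-deficient replicate 3. Without In/B replicate 1 the difference from In/B was 4.09 (SE 0.36), and without In/B replicate 2 or 3 it was 2.71 or 2.69. Among 8 tested genes that act with Nobox in oocytes or are its targets there, 4 were called higher in RA-deficient than in RA-sufficient PL (Figla, Sohlh1, Sohlh2 and Zp3) and 0 lower, against 4.47% of all genes higher. Without replicate 3 the counts were 4 higher and 1 lower (Gdf9), against 8.01% of all genes higher. Figla, a factor of the egg coat genes, was at 34.7, 27.4 and 10.2 CPM in RA-deficient PL against 8.23 to 11.8 CPM in RA-sufficient PL, so that replicate 3 lay within the RA-sufficient range. Sohlh1, a factor shared by spermatogonia and oocytes, was at 56.5, 60.8 and 14.9 CPM in RA-deficient PL, 6.10 to 11.1 CPM in RA-sufficient PL and 65.2 to 115 CPM in In/B. The oocyte products Gdf9, Bmp15, Zp1, Zp2, Oosp1 and Nlrp5 had means under 0.1 CPM in RA-deficient PL, while the egg coat gene Zp3 had a mean of 16.0 CPM and Npm2 one of 5.67 CPM there.

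Naf1 encodes an assembly factor of the H/ACA particles that carry guide RNAs for pseudouridylation and the telomerase RNA (chr8:69384116-69414463, plus strand). It was at 43.8, 37.1 and 41.6 CPM in In/B, 62.2, 66.6 and 67.1 in RA-sufficient PL and 135, 142 and 156 in RA-deficient PL. In/B and RA-sufficient PL did not overlap either. Naf1 had the smallest difference between the PL groups among the 11 genes, 1.33 (SE 0.12) on the log2 scale and 1.27 without replicate 3. It differed from In/B by 2.14 (SE 0.14). Of 7 other genes of these particles and of telomerase, 0 were called in either direction between the PL groups. The core protein gene Dkc1 was at 53.5 ± 27.7 CPM in RA-deficient PL, 32.9 ± 2.66 in RA-sufficient PL and 133 ± 1.35 in In/B (mean ± SD, n = 3). Its RA-deficient libraries were at 76.6, 60.9 and 22.8 CPM. Without replicate 3, Dkc1 (1.24) and the telomerase gene Tert (1.25) were called higher and Nop10 (-1.37) lower.

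Elavl3, also called HuC, encodes an RNA-binding protein of the ELAV family best known from neurons (chr9:21819449-21856467, minus strand). It was at 24.4, 31.7 and 26.0 CPM in In/B, 26.7, 23.5 and 27.7 CPM in RA-sufficient PL and 90.6, 115 and 65.8 CPM in RA-deficient PL. In/B and RA-sufficient PL overlapped fully, and the RA-deficient libraries were spread, with replicate 3 the lowest. On the log2 scale it differed by 1.98 (SE 0.23) from RA-sufficient PL and 2.04 (SE 0.23) from In/B, and 2.17 and 2.21 without replicate 3. Elavl2 was called higher in RA-deficient than in RA-sufficient PL as well (1.30, SE 0.29), with 179, 184 and 108 CPM beside 129 to 173 CPM in In/B. It differed from In/B by 0.31 (SE 0.22), or 0.52 (SE 0.14) without replicate 3. In a list of RNA-binding and RNA-processing proteins, 9 of 169 other tested genes were called higher between the PL groups and 6 lower, against 4.47% and 11% of all genes, or 11 and 9 without replicate 3.

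Nrtn, the member with the largest ratio, encodes neurturin, a secreted ligand of the GDNF family that signals through GFRA2 and the receptor RET (chr17:56890748-56896953, minus strand, promoter above). It was near the detection limit outside the RA-deficient group, with 11, 16 and 8 counts in In/B and 6, 11 and 35 in RA-sufficient PL against 156, 196 and 206 in RA-deficient PL. In CPM this was 0.652, 0.600 and 0.465 in In/B, 0.476, 0.696 and 1.603 in RA-sufficient PL and 5.80, 7.25 and 8.22 in RA-deficient PL. RA-sufficient replicate 3 was the highest of the other 6 libraries. The log2 difference was 3.10 (SE 0.58) from RA-sufficient PL and 3.94 (SE 0.48) from In/B, and 2.95 and 3.81 without RA-deficient replicate 3. Without RA-sufficient replicate 3 the difference from RA-sufficient PL was 3.74 (SE 0.62). Of its receptors, Gfra2 was at 0.272 ± 0.239 CPM in RA-deficient PL, and Ret was at 96.4, 96.4 and 91.3 CPM there and at 34.9 to 104 CPM in the other 6 libraries. Of 7 other tested genes of the family 0 were called between the PL groups, and without replicate 3 Artn was called higher and Gfra4 lower. In the longer list of FGF, GDNF and MAPK feedback genes, 1 of 36 other tested genes was called higher and 3 lower, against 4.47% and 11% of all genes, or 5 and 7 without replicate 3.

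Col6a3 encodes the alpha-3 chain of collagen VI, a microfibril of the extracellular matrix (chr1:92663435-92740529, minus strand). It was at 2.55, 1.72 and 2.27 CPM in In/B, 2.38, 1.33 and 1.37 CPM in RA-sufficient PL and 10.8, 7.25 and 18.5 CPM in RA-deficient PL. This was the widest spread of the 11 genes in RA-deficient PL, a coefficient of variation of 47.3%, with replicate 3 the highest. On the log2 scale it differed by 3.03 (SE 0.51) from RA-sufficient PL and 2.80 (SE 0.46) from In/B, and 2.61 and 2.36 without replicate 3. Of the other 5 chains of collagen VI, Col6a6 was called lower (-5.90) and Col6a2 higher in RA-deficient PL, the latter by 1.13 (SE 0.19) against RA-sufficient PL, at 55.2, 60.2 and 43.8 CPM against 25.5 to 30.5 CPM. Because stromal cells make collagen VI, the 21 peritubular and stromal markers, Col6a1 and Col6a2 among them, were read beside it. They summed to 166 to 212 CPM in In/B, 1031 to 1417 in RA-sufficient PL and 246 to 268 in RA-deficient PL, with 0 of the 21 at 0 in all RA-deficient libraries. The marker Col1a1 was at 63.7, 63.5 and 51.7 CPM in RA-deficient PL, 6.42 to 15.4 CPM in RA-sufficient PL and 47.8 to 75.1 CPM in In/B. Other markers did not follow it. In means of RA-deficient against RA-sufficient PL, Acta2 (2.41 against 11.5 CPM) and Col3a1 (7.32 against 13.5) were lower. Col1a2 (7.26 against 9.87), Dcn (12.1 against 12.7) and Pdgfra (12.0 against 13.6) differed less. Col6a1 (7.84 against 6.26) and Myh11 (1.43 against 0.886) were slightly higher. Of 20 markers tested, 2 were called higher, Col6a2 among them, and 1 lower in RA-deficient than in RA-sufficient PL. The median log2 difference of the 20 was -0.01. The sum is weighted by the most abundant markers, so its fall between the PL groups does not stand for the list as a whole. Of 18 tested against In/B 5 were higher and 1 lower. Without replicate 3 the counts were 2 higher and 4 lower, and 7 higher and 1 lower against In/B. Their part in the level of Col6a3 was not tested, and in bulk samples fewer cells of a type and less RNA per cell cannot be told apart. Among the other collagens, laminins and integrins, 5 of 76 tested genes were called higher between the PL groups and 10 lower, against 4.47% and 11% of all genes, or 6 and 15 without replicate 3.

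Spns2 encodes the transporter that exports sphingosine 1-phosphate, a lipid signal (chr11:72265140-72303463, minus strand, promoter above). It was at 22.0, 10.9 and 12.5 CPM in In/B, 31.7, 15.3 and 18.5 CPM in RA-sufficient PL and 87.9, 78.5 and 64.2 CPM in RA-deficient PL. Replicate 1 was the highest library in each group, and In/B and RA-sufficient PL overlapped. The log2 difference was 1.99 (SE 0.31) from RA-sufficient PL and 2.67 (SE 0.29) from In/B, and 2.13 and 2.78 without RA-deficient replicate 3. Among 9 other tested genes of this lipid, 0 were called higher between the PL groups and 1 lower, the phosphatase gene Sgpp1 (-2.85, SE 0.33), which was at 7.32 ± 2.06 CPM in RA-deficient PL, 59.8 ± 16.4 in RA-sufficient PL and 8.99 ± 1.25 in In/B. Without replicate 3 the kinase gene Sphk1 was also called higher. In mm9, 131 exon bases of Spns2 overlap Mybbp1a on the other strand, a gene at 124 to 250 CPM in the group means, and whether strand was used in counting is not given in the sources used here.

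Kcnh4 encodes a voltage-gated potassium channel subunit of the ELK type (chr11:100601690-100621256, minus strand). Like Chd9 it had 3 separate levels, with 0.652, 0.712 and 0.291 CPM in In/B, 3.25, 4.75 and 4.08 CPM in RA-sufficient PL and 10.4, 9.50 and 13.6 CPM in RA-deficient PL. In/B and RA-sufficient PL did not overlap, though the In/B values rest on 5 to 19 counts a library. The log2 difference was 1.66 (SE 0.34) from RA-sufficient PL and 4.63 (SE 0.49) from In/B, and 1.48 and 4.45 without replicate 3. Of 3 tested relatives, 2 were called lower in RA-deficient than in RA-sufficient PL and 0 higher. Kcnh2 differed by -3.17 (SE 0.49), at 13.4, 3.18 and 6.15 CPM against 74.1 to 80.5 CPM, and Kcnh3 by -1.49 (SE 0.38). Of 143 other tested potassium, sodium, calcium, chloride and TRP channel genes, 13 were called higher between the PL groups and 19 lower, against 4.47% and 11% of all genes. Without replicate 3 these were 20 and 32 of 148.

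Hip1r encodes a protein that links clathrin-coated pits to actin (chr5:124423637-124453220, plus strand). It was at 32.1, 30.5 and 28.3 CPM in In/B, 23.9, 32.1 and 32.2 CPM in RA-sufficient PL and 92.2, 88.2 and 76.6 CPM in RA-deficient PL. The first 2 groups overlapped, and all RA-deficient libraries lay well above them. On the log2 scale it differed by 1.73 (SE 0.18) from RA-sufficient PL and 1.82 (SE 0.15) from In/B, and 1.80 and 1.88 without replicate 3. Its close relative Hip1 was at 160 ± 13.6 CPM in In/B, 108 ± 11.1 in RA-sufficient PL and 75.9 ± 16.7 in RA-deficient PL and was not called between the PL groups. Of the clathrin genes, the light chain gene Cltb was called lower in RA-deficient PL (-1.07, SE 0.30).

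Radil encodes an effector of the small GTPase RAP1 in cell adhesion and migration (chr5:142960793-143027052, minus strand). It was at 106, 104 and 98.0 CPM in In/B, 118, 93.8 and 103 CPM in RA-sufficient PL and 283, 278 and 243 CPM in RA-deficient PL. The In/B and RA-sufficient values overlapped, and replicate 3 was the lowest of the RA-deficient libraries. The log2 difference was 1.53 (SE 0.13) from RA-sufficient PL and 1.70 (SE 0.11) from In/B, and 1.60 and 1.76 without replicate 3. Rasip1, a related RAP1 effector, was called higher in RA-deficient than in RA-sufficient PL (2.03, SE 0.47), but at 40.0, 41.2 and 11.5 CPM replicate 3 was apart and In/B was at 25.9 to 27.9 CPM. Rap1a and Rap1b were not called. The gene Papolb lies inside Radil on the same strand without a shared exon base and was at 6.22, 73.7 and 12.3 CPM in the means of In/B, RA-sufficient and RA-deficient PL.

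**Figure D2:**
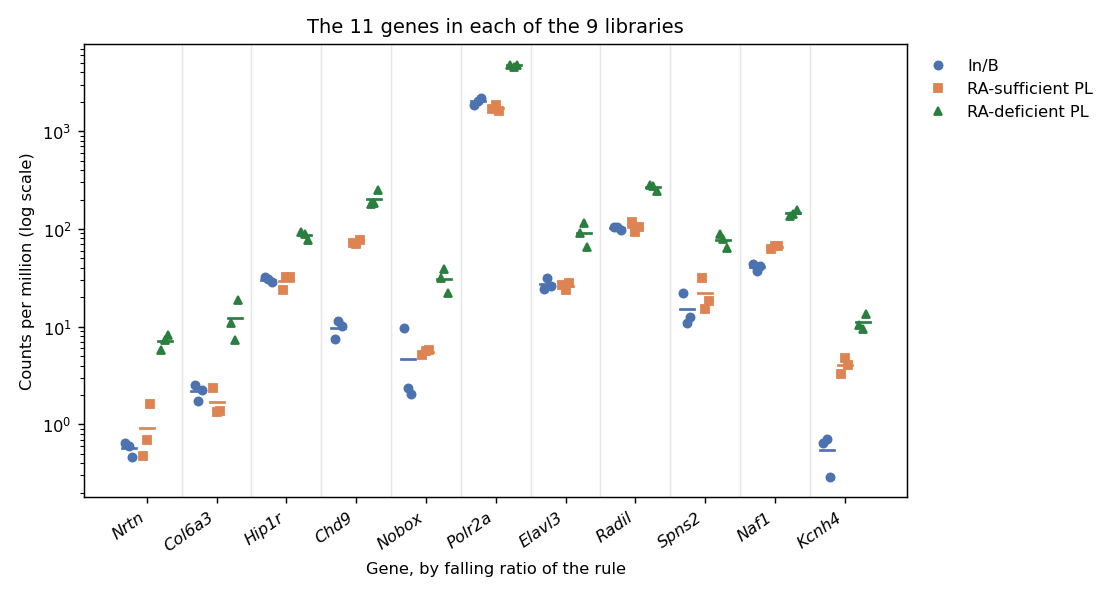
CPM on a log scale for the 11 genes in each of the 9 libraries, with 3 points a group (In/B circles, RA-sufficient PL squares, RA-deficient PL triangles) and a bar at each group mean. The RA-deficient points lie above all others for every gene, as the rule requires. In/B and RA-sufficient PL also lie apart for Chd9, Kcnh4 and Naf1, and only just for Polr2a. Of all genes tested, 45.4% were called between In/B and RA-sufficient PL, which is another measure than a lack of overlap. The share of all genes without overlap is not given, so nothing is read from it. In/B replicate 1 stands out for Nobox at 9.66 CPM.

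Put per length of exon, Polr2a stood apart at 668 ± 17.5 RPKM (CPM per kilobase of exon, mean ± SD, n = 3) in RA-deficient PL. Radil (55.8 ± 4.49 RPKM) and Naf1 (48.2 ± 3.55 RPKM) came next, and these 2 overlapped within 1 SD. Spns2 (18.6 ± 2.89), Elavl3 (18.0 ± 4.90), Hip1r (17.1 ± 1.62), Nobox (16.2 ± 4.41) and Chd9 (15.6 ± 3.00 RPKM) did not differ beyond their spread. Nrtn (6.93 ± 1.19), Kcnh4 (2.83 ± 0.546) and Col6a3 (1.02 ± 0.483 RPKM) were the lowest. Together the 11 genes took 0.553% to 0.573% of the counts in RA-deficient PL and 0.193% to 0.242% in the other 6 libraries. Without Polr2a the shares were 0.0916% to 0.0947% and 0.0222% to 0.0346%.

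The genes lay on 7 chromosomes, with 3 on chromosome 11, 2 each on chromosomes 5 and 8, and none next to another on its chromosome. Their exon length had a median of 4803 bases against 4089 over the 8397 annotated genes with at least 5 CPM in every RA-deficient library, with single genes from 1023 bases (Nrtn) to 13054 (Chd9). Of 55 gene lists, 4 held a member, the lists of FGF and GDNF genes, channels, collagens and RNA-binding proteins described above. Lists of meiotic prophase, RA response, stress and interferon genes, and all lists of somatic cell markers, held 0 members. With 11 members among 24505 genes, such short lists would seldom hold a member whatever their kind, so nothing is read from these counts. The stromal list had been written with Col6a1 and Col6a2 but without Col6a3.

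The comparison that the rule did not use as a contrast is that of RA-sufficient PL with In/B, which shows how the 11 genes moved between these stages when RA was present. Chd9 (log2 difference 2.94, SE 0.20) and Kcnh4 (2.85, SE 0.47) were higher in RA-sufficient PL, with Benjamini-Hochberg adjusted p = 1.52e-05 and 0.000787 (edgeR, quasi-likelihood test). This made 2 of 11 members called against 45.4% of the 15001 genes tested, and 2 against 26.1% for calls of higher. The rule did use the highest value of these 6 libraries, and a gene high in either group was less likely to be chosen. The share of members called thus depends in part on the rule, and nothing is read from it. Both calls held in each of 12 alternative fits, with log2 differences from 2.76 to 3.08 for Chd9 and from 2.55 to 3.10 for Kcnh4. Naf1 was higher by 0.70 (SE 0.14, edgeR adjusted p = 0.00198), under the 2-fold limit.

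The other 8 did not pass the test. Polr2a differed by -0.23 (SE 0.12, edgeR adjusted p = 0.122), and its groups only just failed to overlap, at 1872 CPM for the highest RA-sufficient and 1873 CPM for the lowest In/B library. Hip1r (-0.02, SE 0.19), Elavl3 (-0.06, SE 0.19) and Radil (0.05, SE 0.12) had the smallest differences. Nrtn (0.75, SE 0.59), Spns2 (0.55, SE 0.35) and Col6a3 (-0.35, SE 0.42) had wide errors. Nobox (0.28, SE 0.57, edgeR adjusted p = 0.685) depended on In/B replicate 1: without that library it was called higher, by 1.32 (SE 0.33, edgeR adjusted p = 0.00999), while over the 12 alternatives its adjusted p ran from 0.00999 to 0.937. The median log2 difference of the 11 genes was 0.28, beside 0.04 over all genes tested.

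In both comparisons that chose them, all 11 genes were called higher. Of all genes tested, 15.5% and 23.2% were called in either direction. The share called higher was 4.47% of 15352 for RA-deficient against RA-sufficient PL and 11.4% of 14877 for RA-deficient PL against In/B, or 8.01% and 11.5% without replicate 3. Nothing is read from these counts, since the rule fixed them. Against RA-sufficient PL, Nrtn was no longer called without RA-sufficient replicate 2, nor Kcnh4 without any 1 of the RA-sufficient libraries, though the log2 differences were then 2.93 for Nrtn and 1.53 to 1.79 for Kcnh4. The log2 differences ran from 1.33 (Naf1) to 3.10 (Nrtn) against RA-sufficient PL, with a median of 1.73, and from 1.53 (Polr2a) to 4.72 (Chd9) against In/B, with a median of 2.67. The 2 comparisons share the RA-deficient libraries. The median of all genes tested was -0.09 and 0.00 in them, and -0.27 and -0.31 when libraries were scaled by their size only. The lowest values of the members on that scale were 1.14 (Naf1) against RA-sufficient PL and 1.22 (Polr2a) against In/B.

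**Figure D3:**
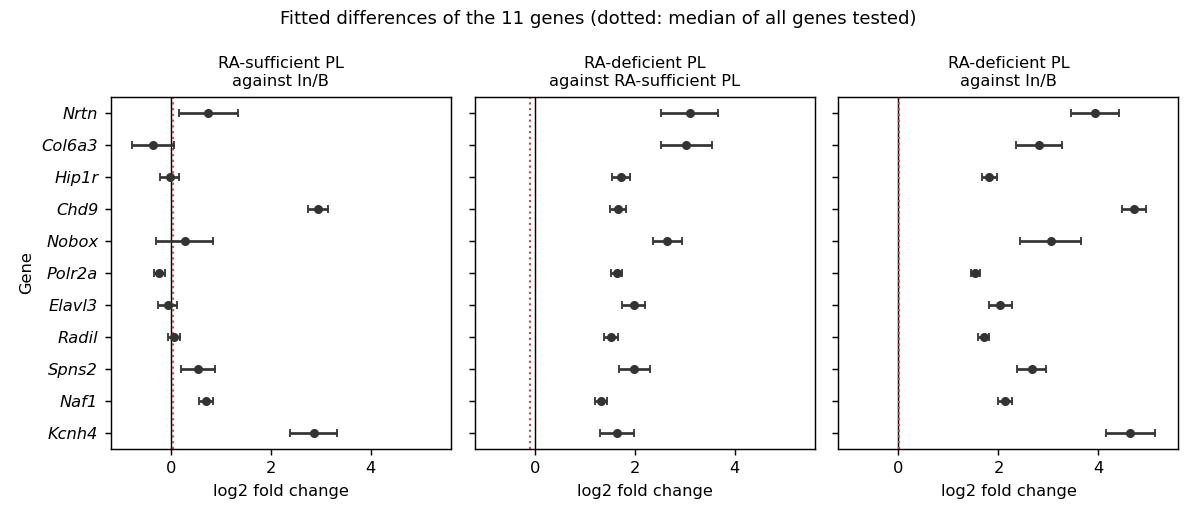
Fitted log2 fold changes of the 11 genes with their standard errors (bars) in the 3 comparisons, each from 3 libraries a group, with the median of all genes tested as a dotted line. In RA-sufficient PL against In/B Chd9 (2.94) and Kcnh4 (2.85) lie far from 0 while 8 genes lie within 1 of it and did not pass the test, and in the comparisons used by the rule all lie above 1.

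The RA-deficient libraries did not vary alike over the genes. Replicate 3 was the highest of the 3 for Nrtn, Col6a3, Chd9, Naf1 and Kcnh4, the lowest for Hip1r, Nobox, Elavl3, Radil and Spns2, and the middle one for Polr2a. As a share of the group mean, replicate 3 ran from 71.2% (Nobox) and 72.7% (Elavl3) to 122% (Chd9 and Kcnh4) and 152% (Col6a3). Chd9 and Kcnh4, called higher in RA-sufficient PL than in In/B, and Naf1, under that limit, were highest in replicate 3. So were Nrtn and Col6a3, which did not pass that test, and the grouping was made with the values in view. Replicate 3 is the library with the low Kit and Stra8 given above, and what part that had in these values was not tested.

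**Figure D4:**
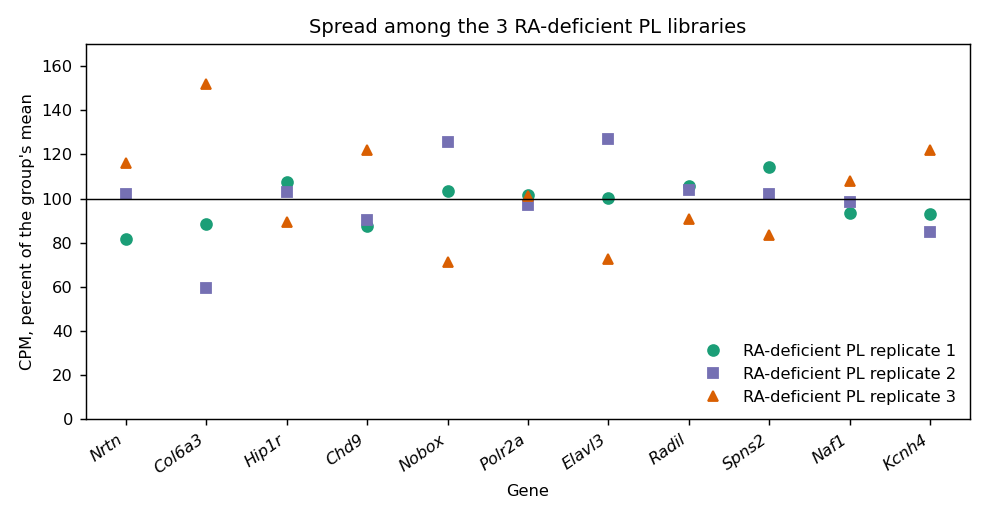
CPM of each RA-deficient PL library as a percent of the mean of the 3, for the 11 genes, with replicates 1 to 3 as circles, squares and triangles and a line at the mean. Replicate 3 is highest for 5 genes and lowest for 5, from 71.2% for Nobox to 152% for Col6a3, and the 3 libraries nearly coincide for Polr2a.

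**Figure D5:**
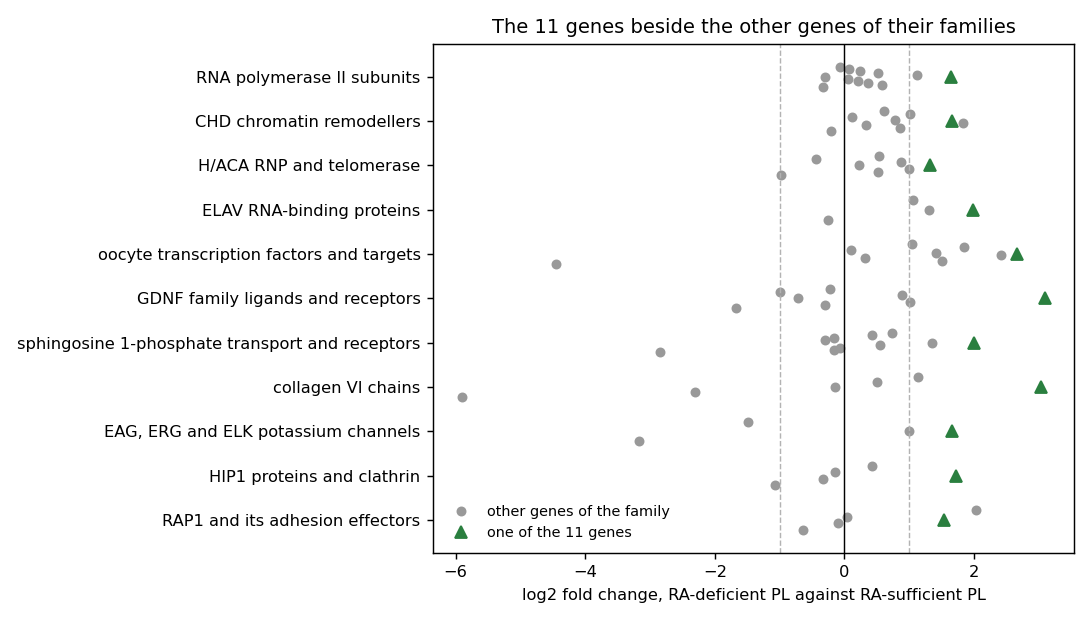
Fitted log2 fold changes of RA-deficient against RA-sufficient PL for the 11 genes (triangles) and the other tested genes of their families (circles), 1 family a row, with dashed lines at -1 and 1. In 9 of 11 families the member lies to the right of every relative, which the choice of the member for its high level favours, and Chd5 (1.82) and Rasip1 (2.03) lie to the right of Chd9 and Radil.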

How the data were processed

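Total RNA of FACS-isolated EGFP+ germ cells was made into stranded poly(A) libraries and sequenced with single-end reads. The authors deposited 1 table of raw counts per gene for 9 libraries, with no normalization. Per the submitters' processing notes, reads were trimmed with cutadapt 1.9, mapped to mm9 with STAR 2.5.2b and counted with featureCounts. The gene annotation and the strand setting are not given in the sources used here. All columns were matched to samples (0 unused).

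CPM was computed here as the count over the column total. The rule for the 11 genes was applied to CPM of all 24505 rows. Fits across all genes used edgeR 4.0.16 (quasi-likelihood test, TMM scaling, R 4.3.3), 1 fit per pair of groups after a filter on low counts, with Benjamini-Hochberg adjustment. A gene was called at an adjusted p below 0.05 and an absolute log2 difference above 1. The study's own tool was DESeq2, and version 1.42.0 was run here as an alternative. The fits were tested on simulated data. Other alternatives were RLE or library size scaling, no filter, 1 fit of all 9 libraries, a replicate block and leaving out each library. For the rule, they were other folds, minimums and scalings.

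Per library, 12612959 to 27042274 counts put 3 counts at 0.111 to 0.238 CPM. Intervals were not computed for single libraries. Gene positions and exon lengths came from GENCODE M1 (mm9) by gene name, promoters from RefSeq (GRCm38.p6). RPKM was computed here from exon length. Figures were drawn with Python 3.11.15, pandas 2.3.3 and matplotlib 3.10.9.

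The genes and the lists were chosen with earlier results of these data known, and the families after the 11 genes were seen. Genes were named by rule: the 14 largest ratios, the 14 highest RA-deficient means, up to 4 members a list, up to 6 called in each direction between RA-sufficient PL and In/B, and the 4 just inside and 4 just outside the limit. This named all 11 members and 4 others. The rule does not cover the family genes, which were picked with their values in view.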

Additional observations from a re-analysis of the deposited data

How the results depend on the processing

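The number of genes chosen moved with the scaling and the fold. It was 24 with CPM after TMM scaling, 30 after RLE scaling, 1 (Nrtn) with a fold of 3 and 59 with a fold of 1.5. It was 8 with a minimum of 10 CPM, which lost Nrtn, Col6a3 and Kcnh4, and 16 with 1 CPM. Leaving out 1 library gave 11 to 63 genes, with 63 without RA-deficient PL replicate 3, 19 without RA-sufficient PL replicate 1 and 17 without In/B replicate 1. All of these held the 11 genes, which leaving out a library ensures by construction.

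Between RA-sufficient PL and In/B, small differences changed sign. Leaving out 1 library at a time gave -0.10 to 0.11 for Hip1r (highest without RA-sufficient PL replicate 1), -0.029 to 0.12 for Radil (lowest without the same library), -0.16 to 0.054 for Elavl3 (highest without In/B replicate 2) and -0.090 to 1.32 for Nobox (-0.059 and -0.090 without In/B replicates 2 and 3). Nobox was called only without In/B replicate 1 (1.32). Between the PL groups, Nrtn lost its call without RA-sufficient PL replicate 2 (log2 difference 2.93) and Kcnh4 without each RA-sufficient PL library (1.53 to 1.79). The rule used this comparison, so these calls are a description and no test is read from them. The cause was not tested.

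Libraries with the same number had correlations of their deviations from -0.253 to 0.118, so the numbers were not taken to pair the samples. With the replicate block, the same count of members was called in each comparison, with log2 differences of 2.97 (Chd9) and 2.91 (Kcnh4) between RA-sufficient PL and In/B. Depth limits Nrtn, Kcnh4 and Col6a3 most, which rest on 5 to 89 counts in libraries outside the RA-deficient group.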
